A study of Mus musculus with 6 samples.

Results

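Ribosomal protein paralogs are second copies of ribosomal protein genes that encode an alternative form of a subunit of the ribosome. Mouse *Rpl3l*, *Rpl7l1*, *Rpl10l*, *Rpl22l1*, *Rpl39l* and *Rps27l* were chosen by name, by a rule that did not use their values. They were 6 of the 54532 genes in the table, and earlier results of these data were known when they were chosen. Their parent genes *Rpl3*, *Rpl7*, *Rpl10*, *Rpl22*, *Rpl39* and *Rps27* served as a reference. The reads of 5 of the 6 paralogs and of all 6 parents were high enough to be tested, and *Rpl3l* was not tested. RNA-seq was done on leptotene and zygotene (L/Z) spermatocytes, germ cells in early meiotic prophase, which had been sorted by DNA dye fluorescence from testes of mice at 12 days postpartum (dpp). There were 3 control libraries, labelled wild type, which the study describes as littermates, and 3 Eef1g-cKO libraries. In Eef1g-cKO males a floxed *Eef1g* was deleted by *Stra8*-GFPCre, a Cre that acts in germ cells from the spermatogonial stage onward, on a C57BL/6J background. *Eef1g* encodes eEF1G, the gamma subunit of the complex that brings aminoacyl-tRNA to the ribosome. The labels do not say whether the libraries came from separate animals, so p-values measure the spread between libraries, which may be partly technical.

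Most ribosomal proteins are encoded by a single active gene, and a few have a paralog whose product can take the parent's place in the ribosome. *Rpl10l* and *Rpl39l* are known from male germ cells, and their parents lie on the X chromosome, which is silenced during meiosis. In the cells studied here both of these parents had reads counted in every library, and silencing of the X chromosome was not tested. *Rps27l* is a target of p53, *Rpl22l1* is repressed by the RPL22 protein, *Rpl3l* is known from heart and skeletal muscle, and *Rpl7l1* is related to a factor that assembles the large subunit rather than to a second form of the mature ribosome.

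Library totals ran from 763133 to 2617648 reads, both in the Eef1g-cKO group, and the smallest was Eef1g-cKO replicate 3. A floor of 3 reads stood for 1.18 to 4.63 counts per 1000000 (CPM, reads per 1000000 reads of the TMM-scaled library). No molecular identifiers were used, so floors cover counting error only. *Eef1g* itself was at 222, 226 and 212 CPM in the control libraries and at 139, 151 and 119 CPM in the Eef1g-cKO libraries, and the log2 fold change was -0.68 ± 0.20 (SE, adjusted p = 0.029). All Eef1g-cKO values lay below all control values, and the call was lost in 8 of 17 alternatives, among them the fits without any 1 control library or Eef1g-cKO replicate 1, with the fold change negative in each. The deletion takes out some exons of *Eef1g*, and reads were counted over the whole gene. By Western blot, the paper reports markedly less eEF1G protein in sorted L/Z spermatocytes. Adjusted p-values throughout come from the quasi-likelihood test of edgeR and were adjusted after Benjamini and Hochberg over all tested genes. At an adjusted p under 0.05, 7.8% of all tested genes were higher and 6.01% were lower in Eef1g-cKO cells. Of 10 L/Z markers, 7 were higher and 0 were lower in Eef1g-cKO cells, and their summed level was 10123 to 11474 CPM in control libraries and 21682 to 28592 CPM in Eef1g-cKO libraries. Among them, *Sycp1* of the synaptonemal complex had a log2 fold change of 1.04 and the meiotic recombinase gene *Dmc1* one of 1.87. Of 10 spermatogonial markers, 7 were tested and 6 were lower, with sums of 1937 to 2393 and 984 to 1211 CPM. The Sertoli cell list summed to 156 to 484 CPM in control libraries and to 26.3 to 87.8 CPM in Eef1g-cKO libraries, with 3 of 5 tested members lower and *Amh* and *Gata4* at 3 reads or fewer in every library. The peritubular and stromal list ran from 163 to 301 CPM in control libraries and from 18.5 to 74.9 CPM in Eef1g-cKO libraries, with 3 of 4 tested members lower. Of 10 markers of pachytene and later germ cells 3 were tested and 1 was lower, with *Acrv1* and *Acr* at 0 reads in every library. *Piwil1*, which serves germ cells from the pachytene stage on, was the one that fell, with 34, 22 and 30 reads in control and 0, 1 and 0 reads in Eef1g-cKO libraries. Some of these counts changed by over 1.5 times, to 0 lower Sertoli cell markers without control replicate 2, to 1 lower stromal marker without control replicate 1, and to 3 lower spermatogonial markers with an offset for transcript GC content. Markers of the labelled stage, of less advanced germ cells and of somatic cells all moved with genotype. Their part in the results below was not tested, and in bulk RNA fewer cells of a type and less RNA per cell cannot be told apart.

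Coding sequences are shown for the 3 pairs on which the results turn, whole or, for the *Rpl22* pair, over the first 300 bases, as given by GENCODE mouse release M21 for GRCm38. Each is written 5′ to 3′ in lower case, and capitals mark the bases that differ between paralog and parent or face a gap in their alignment.
*Rpl39l*: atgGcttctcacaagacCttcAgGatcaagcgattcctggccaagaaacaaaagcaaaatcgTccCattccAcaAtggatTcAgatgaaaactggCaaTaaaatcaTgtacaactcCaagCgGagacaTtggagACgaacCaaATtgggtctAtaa
*Rpl39*: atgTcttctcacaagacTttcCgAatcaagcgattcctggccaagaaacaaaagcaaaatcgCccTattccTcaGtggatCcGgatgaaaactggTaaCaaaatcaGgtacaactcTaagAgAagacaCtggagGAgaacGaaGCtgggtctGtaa
*Rps27l*: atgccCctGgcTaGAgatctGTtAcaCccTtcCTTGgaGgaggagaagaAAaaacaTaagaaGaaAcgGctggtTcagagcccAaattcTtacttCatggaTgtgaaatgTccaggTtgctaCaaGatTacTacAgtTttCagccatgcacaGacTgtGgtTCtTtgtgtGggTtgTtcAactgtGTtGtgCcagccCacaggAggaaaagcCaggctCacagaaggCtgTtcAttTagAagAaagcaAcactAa
*Rps27*: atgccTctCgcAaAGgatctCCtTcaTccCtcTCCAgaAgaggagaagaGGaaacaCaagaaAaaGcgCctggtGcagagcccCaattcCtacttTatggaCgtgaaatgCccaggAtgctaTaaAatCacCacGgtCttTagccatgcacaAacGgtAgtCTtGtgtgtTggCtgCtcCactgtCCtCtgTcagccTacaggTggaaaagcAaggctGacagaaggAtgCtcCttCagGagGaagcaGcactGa
*Rpl22l1*: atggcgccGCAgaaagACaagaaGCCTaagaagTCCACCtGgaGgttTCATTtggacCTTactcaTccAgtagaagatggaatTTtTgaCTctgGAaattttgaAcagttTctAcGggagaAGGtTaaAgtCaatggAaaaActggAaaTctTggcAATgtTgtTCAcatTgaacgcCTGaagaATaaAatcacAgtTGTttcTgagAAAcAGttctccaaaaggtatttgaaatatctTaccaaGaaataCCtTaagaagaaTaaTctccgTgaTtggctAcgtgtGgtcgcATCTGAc
*Rpl22*: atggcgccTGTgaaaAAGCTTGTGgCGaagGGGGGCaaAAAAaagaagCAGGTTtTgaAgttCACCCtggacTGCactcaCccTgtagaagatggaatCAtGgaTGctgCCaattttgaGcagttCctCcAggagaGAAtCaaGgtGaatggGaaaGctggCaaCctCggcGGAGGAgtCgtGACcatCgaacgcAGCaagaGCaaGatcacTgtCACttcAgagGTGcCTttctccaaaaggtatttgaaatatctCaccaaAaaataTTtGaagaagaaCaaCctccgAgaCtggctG
*Rpl39l* (ENSMUSG00000039209) lies at chr16:10170226-10174911 on the plus strand, has 3 exons, and encodes the same 51 codons in number as the X-linked *Rpl39*. Their coding sequences differed at 23 of 156 bases, an identity of 85.3%. *Rps27l* (ENSMUSG00000036781) lies at chr9:66946086-66949516 on the plus strand with 4 exons, and differed from *Rps27* at 61 of 255 bases (76.1% identity). *Rpl22l1* (ENSMUSG00000039221) lies at chr3:28805436-28807424 on the plus strand with 4 exons, and differed from *Rpl22* at 110 of 369 aligned bases (70.2% identity), with *Rpl22* longer by 18 bases. *Rpl10l* (ENSMUSG00000060499) is a single-exon gene at chr12:66283379-66284401 on the minus strand, the form of a retrogene, and was 84.8% identical to the X-linked *Rpl10* over 645 bases. *Rpl7l1* (ENSMUSG00000063888, chr17:46773907-46782672, minus strand, 6 exons) was the most diverged, at 59.9% identity to *Rpl7*. *Rpl3l* (ENSMUSG00000002500, chr17:24727820-24736143, plus strand, 10 exons) was 74.4% identical to *Rpl3*.

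Reads of a paralog could be told from those of its parent, because 0% of the 50-base windows of any of the 6 paralog transcripts occurred in its parent's transcript. Other copies in the genome were more of a limit. The share of windows found in any other annotated transcript was 0% for *Rpl39l* and *Rpl3l*, 7.60% for *Rpl10l*, 12.2% for *Rpl7l1*, 22.4% for *Rps27l* and 65.6% for *Rpl22l1*. Among parents it ran from 16.5% for *Rpl39* to 98.6% for *Rps27*, whose windows lay almost entirely within the retrogene *Rps27rt* as well. How the counting treated reads with several alignments is not given in the sources used here. Levels of *Rpl22l1*, *Rps27*, *Rpl10*, *Rpl3* and *Rpl7* (53.3% of windows) are therefore uncertain. *Rpl22l1* also shared 7.99% of its exon bases with the antisense gene *Gm33051*, and whether strand was used is not given either.

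Levels per kilobase of the main coding transcript (RPKM, CPM divided by the transcript length in kilobases) placed *Rps27l* at the head of the 12 genes. Its control level was 2834 ± 390 RPKM (SD, n = 3), above *Rpl22* at 2135 ± 40.1 and *Rps27* at 2044 ± 234 RPKM, whose libraries overlapped with each other. *Rps27* was counted without the reads given to *Rps27rt* (279, 130 and 150 CPM in control), so its place below *Rps27l* is uncertain. *Rpl7* came next at 834 ± 24.6 RPKM. *Rpl39l* followed at 741 ± 32.7 RPKM, above its parent at 421 ± 53.6 RPKM. *Rpl10l*, at 285 ± 25.9 RPKM, was also above its parent, at 203 ± 27.0 RPKM. Of the 50-base windows of *Rpl10*, 92.1% occur in other annotated transcripts, so its place below *Rpl10l* is uncertain too. The remaining paralogs stood far below their parents, with *Rpl22l1* at 120 ± 7.92, *Rpl7l1* at 45.5 ± 1.48 and *Rpl3l* at 0.925 ± 0.836 RPKM. In control libraries no neighbours among the 6 paralogs overlapped in this order. In Eef1g-cKO libraries the order was kept in the means, at 4428 ± 1086 for *Rps27l*, 401 ± 51.4 for *Rpl39l*, 252 ± 98.0 for *Rpl10l*, 167 ± 36.3 for *Rpl22l1* and 40.5 ± 9.55 RPKM for *Rpl7l1*. There *Rpl10l* overlapped with both of its neighbours, *Rpl39l* and *Rpl22l1*. With the deposited gene length, which spans the exons of all transcripts of a gene, *Rpl39l* ranked 3 rather than 5 of the 12 genes in control, so an order between genes rests on the length used, whereas a difference between genotypes does not.

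**Figure D1:**
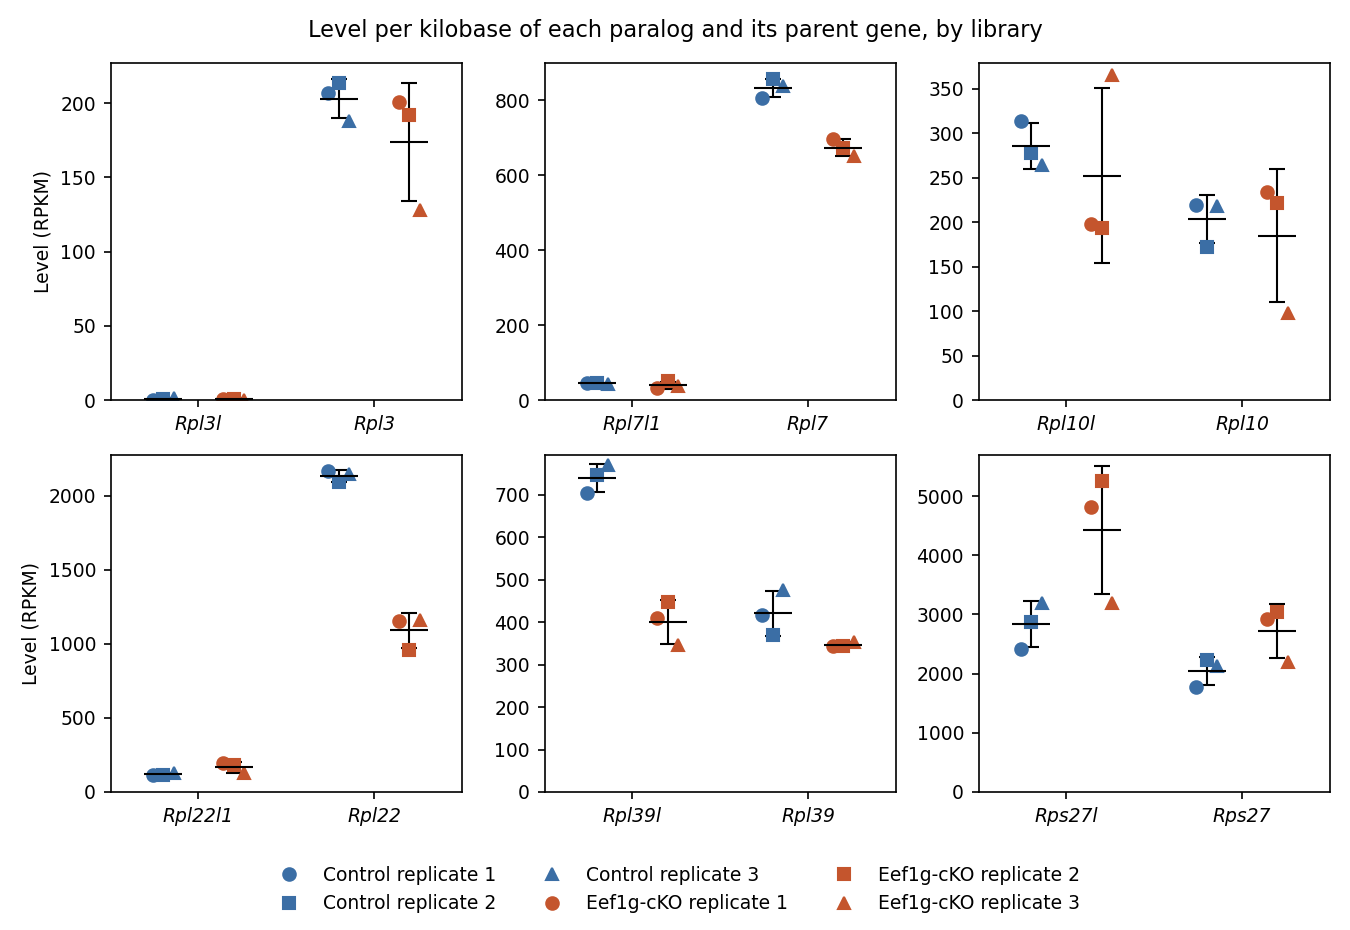
Level per kilobase (RPKM, vertical axis) of each paralog and its parent in every control and Eef1g-cKO library, 1 panel per pair, with a symbol for each library and black bars for the mean and SD (n = 3). *Rps27l*, *Rpl39l* and *Rpl10l* lie above their parents in all 3 control libraries, and *Rpl3l*, *Rpl7l1* and *Rpl22l1* lie far below theirs. *Rps27* is shown without the reads given to *Rps27rt*, so its place below *Rps27l* is uncertain. The place of *Rpl10* below *Rpl10l* is uncertain too, since 92.1% of its 50-base windows occur in other annotated transcripts.

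To ask which paralogs differed between genotypes, the counts of all 8513 tested genes were fitted together. Of these, 13.8% were called at an adjusted p under 0.05, 7.8% higher and 6.01% lower in Eef1g-cKO cells. Of the 5 tested paralogs, 2 were called: *Rpl39l* was lower and *Rps27l* was higher. Neither reached an absolute log2 fold change of 1, a limit that 8.38% of tested genes passed, 3.42% higher and 4.96% lower. All libraries of one genotype lay beyond all libraries of the other in CPM for 1 of the 5 paralogs, *Rpl39l*, against 34.5% of all tested genes. Of the 6 parents, 1 was called, *Rpl22*, which was lower.

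*Rpl39l*, whose product lines the exit tunnel of the large subunit in place of RPL39, fell in Eef1g-cKO L/Z spermatocytes to 54.4% of its control level. It was at 388, 411 and 423 CPM in the control libraries and at 226, 246 and 190 CPM in the Eef1g-cKO libraries. All 3 Eef1g-cKO values lay below all 3 control values. The means were 407 ± 18.01 and 220 ± 28.3 CPM, and the log2 fold change was -0.88 ± 0.17 (SE, 95% interval -1.24 to -0.52, adjusted p = 0.0023). This call held under every alternative, with log2 fold changes from -1.06 to -0.75. Its X-linked parent *Rpl39* was at 255, 226 and 292 CPM in control libraries and at 210, 211 and 216 CPM in Eef1g-cKO libraries. These groups did not overlap either, but the log2 fold change of -0.28 ± 0.19 did not pass the test (95% interval -0.67 to 0.11, adjusted p = 0.353).

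*Rpl10l*, whose product serves ribosomes of meiotic cells when X-linked *Rpl10* is silent, was at 321, 285 and 270 CPM in control libraries and at 203, 198 and 374 CPM in Eef1g-cKO libraries. Replicates 1 and 2 of the Eef1g-cKO group lay below every control library and replicate 3 lay above every one. The means were 292 ± 26.5 and 258 ± 100 CPM, and the log2 fold change was -0.20 ± 0.22 (95% interval -0.67 to 0.27, adjusted p = 0.618). Without Eef1g-cKO replicate 3, the log2 fold change was -0.51 and passed the threshold (adjusted p = 0.0488). That library had the fewest reads and the highest share of nuclear rRNA, 9.23% against 2.73% to 6.29% in the other libraries. *Rpl10* was the other way round in it, at 78.8 CPM beside 187 and 177 CPM in Eef1g-cKO replicates 1 and 2 and 176, 138 and 174 CPM in control. Over all libraries the log2 fold change of *Rpl10* was -0.11 ± 0.27 (adjusted p = 0.834).

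Other autosomal genes derived from X-linked parents gave a comparison for these pairs. Of 7 such genes 4 were tested, and 0 passed in either direction by edgeR, DESeq2 or limma, nor did any at an unadjusted p under 0.05. Their median log2 fold change was 0.14, against -0.05 over all tested genes. *Cstf2t*, a polyadenylation factor gene, had a log2 fold change of 0.08, *Rbmxl2*, a splicing regulator gene of germ cells, 0.15, and *Utp14b*, a gene for small-subunit processing, 0.14. *Pgk2* and *G6pd2*, which encode metabolic enzymes of later germ cells, had at most 2 reads in any library. *Cetn1*, a centrin gene, was not tested and had 8, 15 and 10 reads in control and 0 reads in each Eef1g-cKO library. Of the 7 X-linked parents 5 were tested, 0 passed in either direction by edgeR or DESeq2 and 1 was higher by limma and at an unadjusted p under 0.05, and their median log2 fold change was 0.58.

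*Rps27l*, the paralog of a small-subunit protein, rose in Eef1g-cKO cells by 1.56-fold. It was at 1210, 1435 and 1598 CPM in control libraries and at 2406, 2627 and 1597 CPM in Eef1g-cKO libraries. Eef1g-cKO replicates 1 and 2 stood above all control libraries, while replicate 3 was level with the highest control library, so the groups overlapped. The means were 1414 ± 195 and 2210 ± 542 CPM, and the log2 fold change was 0.65 ± 0.17 (95% interval 0.29 to 1.00, adjusted p = 0.0164). The call was lost without control replicate 1 (adjusted p = 0.1) or 2 (0.0592), without Eef1g-cKO replicate 1 (0.0647) or 2 (0.0643), and with scaling to library totals alone (0.135). In each of these the value stayed positive, at 0.46 to 0.66. Its parent *Rps27* was at 614, 769 and 733 CPM in control libraries and at 1007, 1052 and 758 CPM in Eef1g-cKO libraries. Here too replicate 3 was the lowest of its group and overlapped with control. The log2 fold change of *Rps27* was 0.42 ± 0.16 (adjusted p = 0.0949), and it passed without Eef1g-cKO replicate 3 (0.58, adjusted p = 0.00592). For *Rps27rt*, from which reads of *Rps27* can hardly be told, the log2 fold change was 0.49 ± 0.26 (adjusted p = 0.242).

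Since *Rps27l* is a target of p53, 16 further p53 target genes were counted. Of 9 tested, 1 was higher and 1 was lower, beside 7.8% higher and 6.01% lower of all tested genes. The median log2 fold change of the list was -0.18. *Plk2*, a kinase gene, rose from 9.75 ± 4.29 to 31.9 ± 18.9 CPM (log2 fold change 1.74, adjusted p = 0.0458), and *Bax*, a pro-apoptotic gene, fell from 22.9 ± 12.1 to 3.81 ± 2.61 CPM (log2 fold change -2.38, adjusted p = 0.0278). *Mdm2*, which encodes the ubiquitin ligase that limits p53, was at 128 ± 7.18 and 187 ± 20.4 CPM (adjusted p = 0.0929). The cyclin gene *Ccng1* was at 151 ± 17.4 and 90.8 ± 26.7 CPM (adjusted p = 0.0685), and *Trp53inp1* had a log2 fold change of -0.18. The list held members on both sides of 0. The call of *Plk2* was lost in 8 of 17 alternatives, among them any fit without 1 control library and the fit without Eef1g-cKO replicate 2 (adjusted p up to 0.287). That of *Bax* was lost in 6 of the 15 in which it was tested, among them the fits without control replicate 1 or 3 or Eef1g-cKO replicate 1 (adjusted p up to 0.229). With the replicate block, and without control replicate 1 or 3, 0 of the list were higher and 0 were lower.

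*Rpl22l1* was at 62.6, 65.1 and 71.1 CPM in control libraries and at 108, 99.6 and 69.5 CPM in Eef1g-cKO libraries. As for *Rps27l*, Eef1g-cKO replicates 1 and 2 lay above every control library and replicate 3 lay within their range. The means were 66.3 ± 4.37 and 92.2 ± 20.1 CPM, and the log2 fold change of 0.49 ± 0.28 did not pass (95% interval -0.10 to 1.08, adjusted p = 0.271). *Rpl22*, the parent whose product is known to repress *Rpl22l1*, was at 1028, 991 and 1017 CPM in control libraries and at 547, 454 and 551 CPM in Eef1g-cKO libraries. It fell in all 3 Eef1g-cKO libraries, by 0.97 on the log2 scale (SE 0.15, 95% interval -1.28 to -0.66, adjusted p = 0.000316). This call held under every alternative.

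*Rpl7l1* was at 61.8, 58.8 and 58.2 CPM in control libraries and at 42.9, 67.0 and 49.4 CPM in Eef1g-cKO libraries. Control libraries lay close together and Eef1g-cKO libraries lay on both sides of them. The log2 fold change was -0.15 ± 0.31 (95% interval -0.81 to 0.51, adjusted p = 0.806). *Rpl7* was at 939, 995 and 975 CPM in control libraries and at 809, 783 and 757 CPM in Eef1g-cKO libraries, without overlap, and its log2 fold change of -0.31 ± 0.14 did not pass (adjusted p = 0.156). Of 22 other genes for assembly of the large subunit, 21 were tested and 1 was lower, *Ftsj3*, an rRNA methyltransferase gene (log2 fold change -1.06, adjusted p = 0.0284). This call was lost in 6 of 17 alternatives, with an offset for transcript GC content (adjusted p = 0.124), with the replicate block (0.0615) and without control replicate 1 (0.168) or 2 (0.1) or Eef1g-cKO replicate 1 (0.115) or 2 (0.0676). Of all tested genes, 6.01% were called lower. With the GC offset 0 of the list were lower and 1 was higher. The median of the list was -0.33. Its most abundant members, the GTPase genes *Gtpbp4* and *Gnl3* and the assembly factor gene *Brix1*, had log2 fold changes of -0.09, 0.02 and -0.10.

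*Rpl3l*, the paralog of striated muscle, was barely seen. It had 0, 3 and 4 reads in control and 2, 4 and 0 reads in Eef1g-cKO libraries, 13 reads in all. No library exceeded the floor of 3 reads by more than 1 read, so no fold is given. *Rpl3* was at 279, 289 and 254 CPM in control libraries and at 271, 260 and 173 CPM in Eef1g-cKO libraries (log2 fold change -0.21 ± 0.20, adjusted p = 0.528).

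**Figure D2:**
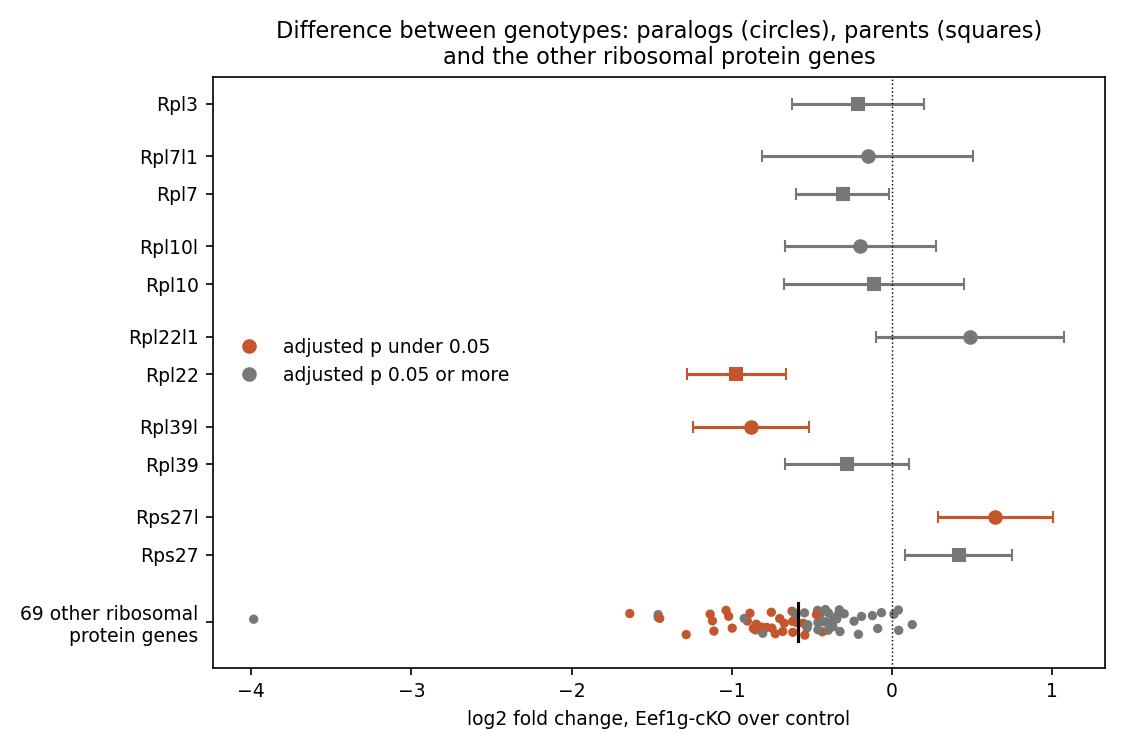
log2 fold changes of Eef1g-cKO over control (horizontal axis) of the 5 tested paralogs (circles) and 6 parents (squares) with their 95% intervals, above those of the 69 other tested ribosomal protein genes, whose median (-0.59) is the vertical bar. Orange marks an adjusted p under 0.05. *Rps27l*, *Rpl22l1* and *Rps27* lie to the right of all 69, and *Rpl39l* and *Rpl22* lie among those with the lower values.

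The 73 other cytosolic ribosomal protein genes, which encode the remaining ribosome, gave the setting for these values. Of 69 tested, 31 were lower and 0 were higher, beside 6.01% lower and 7.8% higher of all tested genes. In this list 0 were higher by DESeq2, by limma or at an unadjusted p under 0.05. The median log2 fold change of the list was -0.59. Fewer were lower without control replicate 1 (15), 2 (20) or 3 (17) or without Eef1g-cKO replicate 1 (16), with medians of -0.59 to -0.52. *Rps24* and *Rps27a*, the most abundant, had log2 fold changes of 0.04 and -0.07, and among the called members *Rpl15* had the largest fall, at -1.64 (adjusted p = 0.0119), a call lost without control replicate 2 (0.0792) or 3 (0.0533) or Eef1g-cKO replicate 1 (0.0606). The values of *Rps27l* (0.65) and *Rpl22l1* (0.49) were above those of all 69 genes, whose highest was 0.13. With an offset for transcript GC content, added after the data were seen, *Rpl22l1* (0.36) was under the highest of them (0.42). *Rpl10l* and *Rpl7l1* were above 61 and 62 of them. *Rpl39l* was above 15 and below 54. With this offset 10 of the list were lower rather than 31 and its median was -0.23, while *Rpl39l* kept its call.

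Each paralog was then set against its own parent within a library, as its share of the reads per kilobase of the pair. Shares rest on the length used, here that of the main coding transcript. With the deposited length *Rpl22l1* averaged 8.78% in control and 20.8% in Eef1g-cKO libraries. Shares of *Rpl10l* and *Rpl22l1* are also uncertain because windows of *Rpl10* (92.1%) and *Rpl22l1* (65.6%) occur in other annotated transcripts. The difference of the log2 ratio between genotypes was tested by a two-sided exact permutation test, in which 3 against 3 libraries cannot go below p = 0.1, so that no pair could pass. *Rpl39l* made up 62.8%, 66.9% and 61.7% of its pair in control and 54.4%, 56.5% and 49.4% in Eef1g-cKO libraries. The shares did not overlap, and the log2 ratio differed by -0.62 (exact permutation p = 0.1, adjusted over the 5 pairs 0.25). *Rpl22l1* made up 4.99%, 5.36% and 5.68% of its pair in control and 14.5%, 15.9% and 9.85% in Eef1g-cKO libraries. These shares did not overlap either, and the log2 ratio was higher by 1.43 in Eef1g-cKO cells, a 2.69-fold difference (exact permutation p = 0.1, adjusted 0.25). The summed level of this pair was 1078 ± 19.2 CPM in control libraries and 610 ± 51.2 CPM in Eef1g-cKO libraries, so the reads of *Rpl22l1* were few beside those lost by *Rpl22*.

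*Rps27l* made up 57.6%, 56.3% and 60.1% of its pair in control and 62.3%, 63.3% and 59.3% in Eef1g-cKO libraries. These shares overlapped, and the log2 ratio differed by 0.22 (exact permutation p = 0.2, adjusted 0.333). With *Rps27rt* reads added to those of *Rps27*, this ratio differed by 0.20. *Rpl10l* made up 58.8%, 61.7% and 54.7% of its pair in control and 45.9%, 46.6% and 78.6% in Eef1g-cKO libraries, where replicate 3 again stood apart from replicates 1 and 2. The difference of its log2 ratio was -0.01 (exact permutation p = 1), and its spread was far wider in Eef1g-cKO libraries (SD 1.21) than in control (SD 0.21). The share of *Rpl7l1* was 5.20% ± 0.304 and 5.72% ± 1.28 (exact permutation p = 0.7, adjusted 0.875), and *Rpl3l* stayed under 1% of its pair in every library. With the deposited length the mean share of *Rpl3l* was 1.12% in control and 1.19% in Eef1g-cKO libraries.

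**Figure D3:**
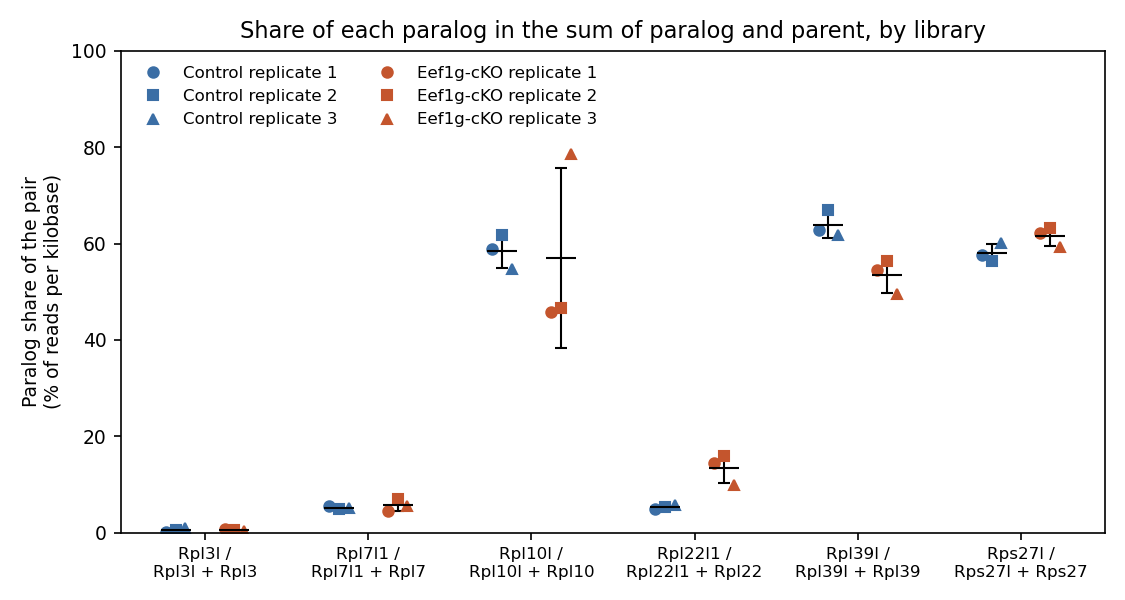
Share of each paralog in the reads per kilobase of paralog and parent together (percent, vertical axis) in each of the 6 libraries, with 1 column of points per pair and genotype and black bars for the mean and SD (n = 3). The Eef1g-cKO points of *Rpl22l1* (9.85% to 15.9%) lie above and those of *Rpl39l* (49.4% to 56.5%) lie below all control points of the same pair. Shares use the length of the main coding transcript and would shift with the deposited length.

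Of 6 further genes named as paralogs of ribosomal proteins, 5 were tested, 1 was lower and 0 were higher. In this list 0 were higher at an unadjusted p under 0.05 or by DESeq2 or limma. Among all tested genes, 6.01% were called lower and 7.8% higher. *Rps4l*, annotated as a transcribed processed pseudogene of the *Rps4x* family, fell from 178, 124 and 137 CPM to 70.4, 84.7 and 85.0 CPM (log2 fold change -0.87 ± 0.25, adjusted p = 0.0242). This call was lost in 5 of 17 alternatives, with the GC offset (adjusted p = 0.499), with the replicate block (0.0578) and without control replicate 1 (0.163), control replicate 3 (0.073) or Eef1g-cKO replicate 1 (0.0949). With the GC offset, and also without control replicate 1, 1 gene of this list was higher and 0 were lower. X-linked *Rps4x* fell as well, from 61.7 ± 8.75 to 21.5 ± 13.7 CPM (log2 fold change -1.45, adjusted p = 0.0284), a call lost with the GC offset (0.0566) and without any 1 control library or Eef1g-cKO replicate 1 (0.066 to 0.112). *Rsl24d1* and *Mrto4*, assembly factor relatives of *Rpl24* and *Rplp0*, had log2 fold changes of -0.12 ± 0.34 and 0.82 ± 0.43 (adjusted p = 0.861 and 0.223). *Rsl1d1* had one of -0.07 ± 0.19 (adjusted p = 0.848). *Rpl36al* had 0 reads in all 6 libraries, which allows up to 1.18 to 4.63 CPM. It shares 24.5% of its exon bases with *Gm49383* on the same strand, so its level is uncertain.

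The genes whose pattern was most like that of a paralog were found over the 6 libraries by the root mean square difference of log2 CPM, centred per gene, as a description. For *Rpl39l* these were *Psma4* (0.0635), *Me2* (0.0805) and *Lonrf3* (0.0923), and *Rpl39* ranked 718 of the tested genes. For *Rps27l* they were *Tsc22d2* (0.0522), *Med31* (0.0574) and *Mef2a* (0.08), and its parent *Rps27* was close, at rank 51 with a difference of 0.146. *Rpl22l1* was nearest to *Tmem128* (0.0476), *Relch* (0.061) and *Snrpe* (0.0648), and *Rpl22* ranked 5799. *Rpl10l* was nearest to *Chfr* (0.0812), *Sf3b2* (0.082) and *Camsap1* (0.0994), and *Rpl10* ranked 5353. *Rpl7l1* was nearest to *Rasa2* (0.0548), *Kpna2* (0.0677) and *Gm6204* (0.0799), and *Rpl7* ranked 254. No parent was among the 3 genes nearest to its paralog.

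**Figure D4:**
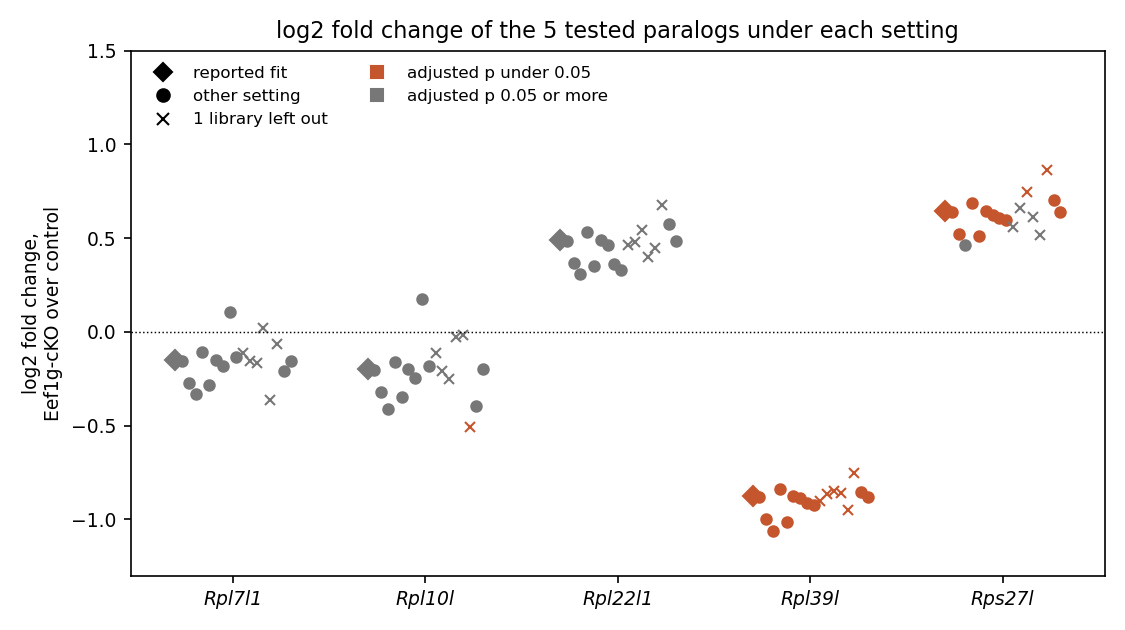
log2 fold change (vertical axis) of the 5 tested paralogs in the fit as reported and under each alternative, with 1 point per setting (diamond as reported, cross with 1 library left out, orange for an adjusted p under 0.05). All points of *Rpl39l* lie between -1.06 and -0.75, those of *Rps27l* and *Rpl22l1* lie above 0, and those of *Rpl10l* and *Rpl7l1* lie on both sides of 0.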

How the data were processed

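RNA of sorted L/Z spermatocytes was amplified as full-length cDNA and sequenced. The authors trimmed reads with fastp, aligned them to GRCm38 with HISAT2 and counted them with featureCounts, and deposited the raw count of reads per gene for each sample, not normalised. Samples were grouped by their titles. Genes were filtered with filterByExpr in edgeR 4.0.16 (R 4.3.3; minimum count 10, minimum total 15), which left 8513 of 54532 genes. The robust quasi-likelihood test was run on TMM-scaled counts with genotype as the only term, with Benjamini-Hochberg adjustment over all tested genes and a threshold of 0.05. The script was tested on simulated data. Ratios of paralog to parent used reads plus 0.5 per kilobase of the main coding transcript. GENCODE M21 gave positions, transcripts and GC content, and 98.3% of the gene IDs found there had the same position.

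Members, lists and tests were chosen with earlier results of these data known. Named genes are the paralogs, parents, *Eef1g*, the further paralogs, from each list the 3 most abundant and the 3 called members with the largest change, and the 3 genes most like each paralog, of which a part is printed; *Amh*, *Gata4*, *Acrv1*, *Acr*, *Pgk2*, *G6pd2* and *Cetn1* were named after their values were seen. Lists of Leydig cell markers (8.4 to 10.7 CPM summed in control, 1.57 to 6.47 CPM in Eef1g-cKO) and blood markers (6.72 to 74.8 and 3.23 to 75.7 CPM) were also counted, with 0 and 1 tested members and no call by any tool. Alternatives were other scalings, filters and tests (DESeq2 1.42.0, limma 3.58.1), thinning, a replicate block and leaving out each library. The GC offset, the lists under other settings, the addition of *Rps27rt* reads and the deposited length were added after the data were seen.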

Additional observations from a re-analysis of the deposited data

How the results depend on the processing

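Over 17 alternatives, *Rpl39l* and *Rpl22* kept their calls and *Rpl22l1* stayed short of the threshold (log2 fold change 0.31 to 0.68). *Rps27l* lost its call with library totals alone (0.46, a scaling that shifted the median of all genes by -0.19) and without control replicate 1 (0.56), control replicate 2, Eef1g-cKO replicate 1 or Eef1g-cKO replicate 2. Leaving out 1 library at a time gave 0.52 to 0.87 for *Rps27l*, -0.95 to -0.75 for *Rpl39l*, 0.40 to 0.68 for *Rpl22l1*, -0.51 to -0.0164 for *Rpl10l* and -0.36 to 0.0203 for *Rpl7l1*, where the value without Eef1g-cKO replicate 1 was the positive one. For the parents it gave -0.29 to -0.01 (*Rpl3*), -0.32 to -0.25 (*Rpl7*), -0.27 to 0.20 (*Rpl10*, positive without Eef1g-cKO replicate 3), -0.99 to -0.87 (*Rpl22*), -0.36 to -0.18 (*Rpl39*) and 0.34 to 0.58 (*Rps27*). The GC content offset, which shifted the median of all genes by 0.19, turned *Rpl7l1* (0.11), *Rpl10l* (0.17), *Rpl3* (0.15) and *Rpl10* (0.0903) positive and brought *Rps27* past the threshold (0.88), as did limma-voom (0.45), which also turned *Rpl10* (0.0584). *Rpl7* passed with upper-quartile scaling (-0.43), library totals (-0.50) and at least 10 reads in every library (-0.45). The difference of the log2 ratio turned for *Rpl7l1* without Eef1g-cKO replicate 2 (-0.054, range -0.054 to 0.29) and for *Rpl10l* with pseudogene reads added to the parent (0.0178) and without control replicate 2 (0.09), Eef1g-cKO replicate 1 (0.35) or 2 (0.33), with a range of -0.71 to 0.35. It ran from 1.27 to 1.66 for *Rpl22l1*, -0.71 to -0.51 for *Rpl39l* and 0.16 to 0.29 for *Rps27l*. The causes were not tested.

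Over all genes, with the fold limit, 291 were higher and 422 were lower. Higher genes numbered 181 with upper-quartile scaling, 141 with library totals, 177 with at least 10 reads in every library, 443 with the GC offset and 664 without the fold limit, and 229 to 356 with 1 library left out. Lower genes numbered 250 with at least 10 reads in every library and 207 to 548 with 1 library left out, the fewest without control replicate 1 (209), 2 (207) or 3 (210). The lower genes made up 59.2% of the calls, 74.0% with upper-quartile scaling, 79.0% with library totals, 38.9% with the GC offset, 43.5% without the fold limit and 47.7%, 45.9% and 46.3% without control replicate 1, 2 and 3. Samples that share a replicate number did not deviate together (correlations -0.04, 0.02 and -0.05). This check cannot exclude that they share a litter or a sort. A fit with the replicate block called 249 genes higher and 328 lower, and the block changed no call of the 6 paralogs or their parents, but ended those of *Eef1g*, *Rps4l*, *Ftsj3*, *Plk2* and *Bax*. The lowest depth, in Eef1g-cKO replicate 3, limits values of a few CPM.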
